A study of Mus musculus with 6 samples.

Results

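Circular RNAs (circRNAs) of 3 genes of synaptic signalling, Cnr1, Cacna1c and Adcy5, were followed in mouse hippocampus after tibial fracture surgery. Of each gene, 1 circRNA was followed by 1 probe. These were 3 of 14236 circRNA probes on the array and 3 of the 12499 that passed the filter on dim probes. Host names were read for only part of the array, so other circRNAs of these genes may be among its probes. The members were chosen with measured values of the same contrast. Cnr1 and Cacna1c were hosts among the 1257 entries read from the study's list of circRNAs whose mean was higher after surgery, and Adcy5 came from the circRNAs the study listed as downregulated. The probe of Adcy5 had been identified by its printed fold change and p. The surgery against control values of these 3 circRNAs are therefore given as a description, with no test.

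Hippocampal RNA came from male C57BL/6J mice aged 12 months, 72 h after the procedure, with 1 mouse per array, 3 surgery arrays and 3 control arrays. Mice of the surgery group had a fracture of the left tibia fixed with an intramedullary nail, under isoflurane with a subcutaneous analgesic that the labels spell butorphenol. Control mice received that anesthesia and analgesia without the operation, so both groups carried the effects of the drugs. The study used all animals for behavioral tests. Both groups were trained with tone and foot shock before the procedure. Contextual, cued and open field tests followed on day 3, the day of tissue collection. Linear RNA was digested with RNase R, the remaining RNA was labeled with Cy3, and each sample was hybridized to its own one-color array.

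A circRNA forms when a downstream splice donor is joined to an upstream acceptor, and the closed loop resists RNase R, an exonuclease that degrades linear RNA. Cnr1 encodes the cannabinoid receptor CB1, a Gi/o-coupled receptor found mainly on presynaptic terminals, where endocannabinoids made by the postsynaptic cell lower transmitter release. Cacna1c encodes the pore-forming subunit of the L-type calcium channel Cav1.2, which links depolarization to calcium entry and to gene transcription in neurons. Adcy5 encodes adenylyl cyclase 5, a membrane enzyme that makes cAMP, is inhibited by Gi proteins and by calcium, and is best known for its abundance in the striatum. CB1 signalling thus acts on both calcium channels and adenylyl cyclases. The intensity of a probe is read here as the circular form, not as the messenger RNA or the protein of its host. Whether linear RNA left after the digestion adds to it was not tested.

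The probe sequences of the Cnr1 and Cacna1c circRNAs are shown because they define which molecule each intensity stands for, and they were taken from the study's circRNA list. Both are 60 bases long and are written 5′ to 3′ in lower case. The position of the back-splice junction within them is not marked, since no genome was used here.
Cnr1, mmu_circRNA_36624: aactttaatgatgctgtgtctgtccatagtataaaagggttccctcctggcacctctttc
Cacna1c, mmu_circRNA_009487: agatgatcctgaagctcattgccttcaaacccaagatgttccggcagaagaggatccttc
The Cnr1 probe had a GC content of 43.3%, equal to the median of the 1257 listed probes, and the Cacna1c probe one of 48.3%. The longest run of bases that the Cnr1 probe shared with any other listed probe was 10 bases (a probe of Cdc14a among them), and for Cacna1c it was 12 bases (a probe of Sh3d19 among them). Among the listed probes, neither had a near-identical copy. The sequence of the Adcy5 probe was not used here.

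The list places the Cnr1 circRNA at chr4:33943551-33945405 on the plus strand and classes it as sense overlapping, a class for circRNAs that overlap the host on its own strand without following its exons exactly. Its ends lay 1.85 kb apart, inside the RefSeq span of Cnr1 in GRCm38.p6 (chr4:33923171-33948831), and covered 7.22% of the length of the gene. The Cacna1c circRNA was listed at chr6:118651947-118751565 on the minus strand as exonic. Its ends lay 99.6 kb apart within a gene of chr6:118587240-119197384, or 16.3% of the gene's length, so most of that stretch is expected to be intron removed by splicing. Adcy5 lies at chr16:35154494-35305743, and its circRNA, mmu_circRNA_29619, was classed as exonic, with no coordinates used here. The list does not name its build, but its coordinates fell inside the GRCm38.p6 span of the host for 1101 of 1118 circRNAs whose transcript was matched, while the array header names mm9. Whether listed starts count from 0 or from 1 is not stated.

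The circRNA of Cnr1 was brighter on every surgery array than on any control array. Before normalization its probe read 288, 348 and 285 intensity units on surgery replicates 1, 2 and 3. On control replicates 1, 2 and 3 it read 171, 145 and 175. After quantile normalization the log2 intensity was 8.23, 8.15 and 7.998 after surgery. In the controls it was 7.60, 7.35 and 7.42. The groups did not overlap, and 0.40 on the log2 scale separated the lowest surgery array from the highest control array. The group means were 8.13 ± 0.12 and 7.46 ± 0.13 (SD, n = 3), a difference of 0.67 or 1.59-fold. This was place 25 from the top among 12499 tested probes ordered by increase.

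The circRNA of Cacna1c was dim on all arrays, and its groups overlapped. Its probe read 47, 54 and 50 intensity units on the surgery arrays. On the control arrays it read 50, 37 and 62, so the highest and the lowest of the 6 readings were both controls. The normalized log2 intensity was 5.75, 5.78 and 5.61 after surgery. In the controls it was 5.64, 5.36 and 5.65, and surgery replicate 3 lay below control replicates 1 and 3. The means of 5.72 ± 0.09 and 5.55 ± 0.16 (SD, n = 3) differed by 0.17, or 1.12-fold, which is close to the spread within the control group. The difference was 0.07 without control replicate 2, the lowest array. Of the 12499 tested probes ordered by increase, it took place 2593. Cacna1c is thus the member nearest to the limit of the list it came from, a difference of 0, and the entries that the study listed below that limit were not read here. The study also names Cacna1c among the genes of its upregulated pathways, and other circRNAs of this gene were not identified on the array here.

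The Adcy5 circRNA mmu_circRNA_29619 was dimmer after surgery. The study also names Adcy5 as a host of upregulated circRNAs, and other circRNAs of this gene were not identified on the array here. Before normalization its probe read 145, 205 and 118 intensity units on the surgery arrays. The control arrays read 173, 249 and 259, and surgery replicate 2 exceeded control replicate 1 on this scale. After normalization the groups no longer overlapped. The log2 intensity was 7.26, 7.45 and 6.80 after surgery. In the controls it was 7.62, 8.14 and 8.05, leaving a gap of 0.18 between the nearest arrays. The mean was 7.17 ± 0.33 after surgery and 7.94 ± 0.28 in controls (SD, n = 3). The difference of -0.77 corresponds to a control level 1.70-fold that of surgery, and it was the number 7 in size among all decreases.

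Non-overlap of 3 arrays against 3 was common on these arrays. Over all tested probes, 13.5% had every surgery array above every control array and 12.0% had every surgery array below, 25.5% in all. Cnr1 belonged to the former and Adcy5 to the latter, and since both were chosen on this contrast nothing is read from that count. In bulk hippocampus, a circRNA present in fewer cells and a circRNA at a lower level per cell cannot be told apart.

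The reliability of each reading differed with its brightness. The array carries 50 other probes in 10 copies each, and copies of probes within 1 log2 unit of Cnr1 had a median within-array SD of 0.06 on the log2 scale (5 probes). For brightness like that of Cacna1c it was 0.10 (46 probes), and for brightness like that of Adcy5 it was 0.06 (7 probes). The highest SD among the repeated spots was 0.18, 0.42 and 0.18 in the same order. Between the mice of a group the SD was 0.12 for Cnr1 and 0.13 for Cacna1c, each above the median and below the highest value of repeated spots, and 0.31 for Adcy5, above both.

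Adcy5 varied more between mice of a group than most probes did. Its within-group SD was larger than that of 92.4% of the 1231 tested probes of like intensity, whose median SD was 0.16. Cnr1 was larger than 26.2% of 957 probes of like intensity (median SD 0.17), and Cacna1c than 59.7% of 7006 (median SD 0.12). Surgery replicate 3 had the lowest value of its group for all 3 circRNAs, at -0.13 for Cnr1, -0.10 for Cacna1c and -0.37 for Adcy5 from the group mean on the log2 scale. Control replicate 1 went opposite ways, with the highest control value of Cnr1 (0.14 above the mean) and the lowest of Adcy5 (-0.31 from the mean).

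Probes that the array design names as negative were set beside these readings. Their 150 spots, 15 probes in 10 copies, had a median intensity of 32 to 50 units per array, and their 95th percentile was 60.8 to 107 units. Cnr1 and Adcy5 were brighter than all 150 of these spots on every array. Cnr1 read 3.50 to 10.9 times their median and Adcy5 3.15 to 7.17 times. Cacna1c read 1.06 to 1.69 times their median, above 56.7% to 84.0% of the spots, and 2 to 6 of the 15 negative probes were brighter than it on each array.

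All 3 circRNAs carried the software's mark of being well above background on 6 of 6 arrays, and so did 37.3% to 64.0% of the negative spots. For Cacna1c that mark does not separate the probe from the named negative probes. Low readings were usual here, as 59.0% to 75.4% of all circRNA probes lay at or below the 95th percentile of the negative spots. The manufacturer's own negative control, 77 spots per array, was dimmer, with a median of 22.5 to 30 units. Cacna1c read above all of these spots on 5 of 6 arrays, and on control replicate 2 its 37 units lay below their highest spot of 60, so the reading of Cacna1c depends on which negative spots are taken. What the named negative probes match was not given in the sources used here, and their role is taken from their name.

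The directions held over the ways of scaling the arrays, but not the separation of the groups. Over 9 scalings, the difference of Cnr1 was 0.60 to 0.91 and its groups were apart in 9. Adcy5 ranged from -0.94 to -0.56, and its groups were apart in 8, overlapping where arrays were not normalized to each other. Cacna1c ranged from 0.05 to 0.36, and its groups were apart in 2, both with normexp background correction.

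All 6 arrays lay on 1 slide, and position on it went partly with group. Surgery arrays lay in columns 1, 1 and 2, and controls in columns 2, 3 and 4. With column as a covariate the difference was 0.47 for Cnr1, 0.11 for Cacna1c and -0.73 for Adcy5. Surgery replicate 3 and control replicate 1 shared column 2. On that pair Cnr1 read 7.998 and 7.60, Cacna1c 5.61 and 5.64, and Adcy5 6.80 and 7.62 on the log2 scale. Within slide row 1, which held surgery replicate 1 and the 3 controls, the differences were 0.77 for Cnr1, 0.20 for Cacna1c and -0.67 for Adcy5. The part of slide position in the differences was not tested further.

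The other genes of these pathways were taken from 3 lists of 162 genes in all, written from textbook knowledge without Cnr1, Cacna1c and Adcy5. Host names were read for 1257 circRNAs only, and 40 circRNAs of 32 list genes were found among them and tested. Those 1257 were listed for a higher mean after surgery, so their direction was largely set by that choice, with a difference above 0 in 36 of the 40 and in 1200 of the 1257 on the values used here, and the count of lower circRNAs is not informative. The study's methods set the thresholds, so a circRNA was called where its fold reached 1.3 and its unadjusted p by limma was no more than 0.05. Slc8a1 and Pde7a, 2 of the called hosts below, met the filter of 3 arrays through the surgery group, where they were high, so their calls are no evidence of a difference, and the counts over the 40 describe circRNAs that passed the filter and support nothing. Of the 40, 6 were called higher (15.0%), against 4.19% called higher over all 12499 probes (1.94% were called lower, and 6.13% in either direction) and 107 of the 1257 listed circRNAs (8.51%). After p-values were adjusted over the 12499 probes by Benjamini-Hochberg, 0 of the 40 passed 0.05 by limma's test and 0.048% of all probes did. That count depended on the fit, as Unc80, Grm5 or Slc8a1 passed it under some alternatives. For Slc8a1 this is no evidence of a difference, because of how it met the filter. The 6 probes that passed among all became 0 to 82 when 1 array was left out (82 without control replicate 1, and 0 without any other). Control replicate 1 had 9257 circRNA probes well above background, against 11925 to 13009 on the other arrays. Its part in the filter and in these counts was not tested. An unadjusted p under 0.05 was found for 13 of the 40, against 310 of the 1257 listed circRNAs and 2586 of all 12499 probes. The groups were apart in 13 of 40 (32.5%), each time with surgery higher. This compares with 28.5% of the listed circRNAs and 25.5% of all tested probes (13.5% higher and 12.0% lower). The median difference was 0.15 for the 40, 0.14 for the 1257 and -0.01 for all tested probes.

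Among 34 genes of endocannabinoid signalling, 6 circRNAs of 5 hosts were tested and 1 was called (16.7%). Shares called higher were 8.51% for the listed circRNAs and 4.19% for all probes. The called circRNA belonged to Grm5, the metabotropic glutamate receptor mGluR5, whose activation drives endocannabinoid production at postsynaptic sites. Its circRNA mmu_circRNA_41814 read 7.09, 7.25 and 7.25 after surgery and 6.69, 6.73 and 6.43 in controls on the log2 scale. All surgery arrays exceeded all controls, with a difference of 0.58 and an adjusted p of 0.0574 by limma. Its reading on control replicate 3, 99 units, lay below the 95th percentile of the negative spots, and those on the other 5 arrays lay above it. The other 5 circRNAs had differences of -0.01 to 0.07 and were not called. Rims1, a scaffold of the presynaptic active zone, had a difference of 0.02.

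The calcium list of 66 genes holds channels, pumps and stores of calcium and also genes of the sodium leak channel. It was represented by 20 circRNAs of 17 hosts, and 4 were called (20%), against 8.51% of the listed circRNAs. Over all probes 4.19% were called higher. Slc8a1, 1 of the 4, met the filter through the surgery group, so nothing is read from this count. Among these 4, Unc80 is a subunit of the sodium leak channel complex and had the highest difference of the 40, 0.72 with an adjusted p of 0.0780 by limma. Its circRNA read 9.01, 8.76 and 8.54 after surgery and 8.37, 7.74 and 8.03 in controls on the log2 scale, so the groups were apart. Slc8a1, a sodium-calcium exchanger of the plasma membrane, had 2 circRNAs that differed in their values. The intronic mmu_circRNA_31030 differed by 0.54, given with no p because of how it met the filter, and was well above background on 3 surgery arrays and 1 control array. Its reading of 35 to 60 intensity units lay at or below the 95th percentile of the negative spots on 6 of 6 arrays, and its difference ranged from 0.33 to 1.40 over the alternatives. The exonic mmu_circRNA_31020 differed by 0.13 and was not called. Ryr3, a ryanodine receptor that releases calcium from intracellular stores, had a difference of 0.42 (adjusted p = 0.0883 by limma), and its reading was at or below the 95th percentile of the negative spots on 4 of 6 arrays.

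Cacna2d1 encodes the alpha2delta-1 auxiliary subunit of voltage-gated calcium channels, a partner of pore-forming subunits such as that of Cacna1c. It was the list gene with 3 circRNAs in the calcium list, and their probes are shown because they read different loops of 1 host, on the plus strand of chromosome 5.
Cacna2d1, mmu_circRNA_38126: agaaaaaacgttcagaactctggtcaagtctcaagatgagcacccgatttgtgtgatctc
Cacna2d1, mmu_circRNA_006797: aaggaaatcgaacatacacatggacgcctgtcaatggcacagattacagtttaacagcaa
Cacna2d1, mmu_circRNA_38123: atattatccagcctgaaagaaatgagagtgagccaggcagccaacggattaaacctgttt
No 2 of them shared a run of more than 5 bases. The first, at chr5:16299452-16328044, read 7.12, 7.52 and 7.34 after surgery and 7.02, 6.69 and 6.76 in controls on the log2 scale. Its difference of 0.50 was called (adjusted p = 0.0916 by limma), with the groups apart. The second, at chr5:16299928-16333825, overlaps the first for most of its span and had a difference of 0.15 with overlapping groups. The third, at chr5:16212875-16246797, lies apart from both and had a difference of -0.03. Differences between the 3 were not tested.

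For cAMP signalling, 14 circRNAs of 10 hosts among 62 list genes were tested and 1 was called (7.14%). The listed circRNAs had 8.51% called and all probes 4.19% called higher. Pde7a, a phosphodiesterase that degrades cAMP, had a difference of 0.42, given with no p for the same reason as Slc8a1, with mmu_circRNA_35130 well above background on 3 surgery arrays and 1 control array. It read 35 to 53 intensity units, at or below the 95th percentile of the negative spots on 6 of 6 arrays, and its difference ranged from 0.24 to 1.11 over the alternatives. After normalization it read 5.46, 5.74 and 5.70 after surgery and 5.14, 5.40 and 5.11 in controls on the log2 scale. The other 13, from hosts such as the Rap guanine nucleotide exchange factors Rapgef2 and Rapgef5 and the phosphodiesterase Pde4d, had differences of -0.01 to 0.29. No circRNA of another adenylyl cyclase was among the 1257 entries read, and the rest of that list was not read here.

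Calls of the pathway hosts varied with the alternatives. With slide column as a covariate 1 of the 6, Grm5, was still called. The difference was then 0.37 for Unc80, 0.35 for Slc8a1 and 0.35 for Cacna2d1, and close to the reported value for Ryr3 (0.37) and Pde7a (0.44). With normexp at an offset of 50, Slc8a1, Ryr3 and Pde7a were not called. Slide row as a block and slide row 1 alone are the same contrast of 1 surgery array with the controls, given here as differences only. They were larger than reported for Unc80 (0.96) and Slc8a1 (0.61). Smaller differences were found for Grm5 (0.47), Cacna2d1 (0.29), Ryr3 (0.33) and Pde7a (0.24). Without surgery replicate 2, neither Ryr3 (difference 0.33) nor Pde7a (0.36) was called. Pde7a was also lost without control replicate 1 (0.38) or control replicate 3 (0.36). Ryr3 (0.38) and Pde7a (0.30) were also not called without normalization between arrays.

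Markers of the tissue could be followed only where a named circRNA existed. Of 16 neuronal marker genes, 7 hosts had 9 named circRNAs, of which 1 was called (11.1%, against 8.51% of the listed circRNAs and 4.19% called higher over all probes), and the median difference was 0.12, against 0.14 for the listed circRNAs and -0.01 for all probes. One oligodendrocyte gene, St18, had a named circRNA, with a difference of 0.11 that was not called. For the listed markers of astrocytes, microglia, endothelium and striatum, 0 named circRNAs were found. Whether the share of these cells, or of striatal tissue, moved with Cnr1 or Adcy5 was not tested.

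The probes most like each member were sought by the root mean square difference of log2 profiles over the 6 arrays, each profile centred on its own mean. Nearest to Cnr1 were the unnamed probes ASCRP4006599 (0.051) and ASCRP4003990 (0.066) and, between them, mmu_circRNA_41732 of Ntrk3 (0.062), the receptor of neurotrophin-3. The median over 12484 probes was 0.37. Uimc1 (0.088) and Arsb (0.092) were the next named hosts. Nearest to Cacna1c were ASCRP4012884 (0.021), Mbd5 (0.025), and Carf (0.027), a calcium-responsive transcription factor, against a median of 0.19. The third named host was Rev3l (0.043).

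The probes nearest to Adcy5, ASCRP4000591, ASCRP4014093 and ASCRP4001212, lay at 0.14, 0.15 and 0.15, against a median of 0.47, and none had a host name here. Between the members themselves, the profile of Cnr1 differed from that of Cacna1c by 0.26, and from that of Adcy5 by 0.77. The profiles of Cacna1c and Adcy5 differed by 0.54. Dim probes have flat profiles and lie closer together, so these distances are not set against each other, and likeness over 6 arrays is a description only.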

How the data were processed

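The authors read 6 one-color arrays with Agilent Feature Extraction 11.0.1.1 and deposited, per spot, the median signal and local background as intensity without normalization between arrays, and a background-subtracted processed signal as intensity. Median signals were quantile-normalized over all 15712 spots and taken to log2, as the methods name quantile normalization in limma. Probes detected on at least 3 of 6 arrays were kept (12499), and 17 circRNA spots marked not uniform were left out. For the other hosts, limma 3.58.1 (R 4.3.3) was run on every tested probe, using lmFit, eBayes and p-values adjusted by Benjamini-Hochberg. The steps were tested on simulated data. Tables were joined in Python 3.11.15.

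Members and gene lists were chosen with earlier results of these data known. Beside the members, the text names called hosts whose groups do not overlap, and the 3 nearest profiles among all and among named probes; other hosts are singled out after their values were seen. Names, coordinates and sequences of 1257 circRNAs came from a list read in part, and no measured value of it was used. The alternatives cover scaling, background correction, filters, tests, slide position, the replicate block and each array left out. No spot was saturated (0), and the median circRNA intensity of 52 to 71.5 units per array, with 3 arrays per group, limits the precision. Replicates are separate mice, and p-values measure the spread between these 6.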

Additional observations from a re-analysis of the deposited data

How the results depend on the processing

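No difference reversed among the members or the pathway medians in the alternatives tried. The difference of Adcy5 moved by less than the spread between replicates in 19 of 19, that of Cacna1c in 18 of 19 and that of Cnr1 in 16 of 19. That spread was each member's own within-group SD, 0.31 for Adcy5, 0.13 for Cacna1c and 0.12 for Cnr1. A wider spread is easier to stay within, so these counts do not rank the members. Keeping spots marked not uniform and a replicate block could not move a member, and slide row as a block and row 1 alone are the same contrast. Without normalization between arrays Cnr1 differed by 0.91, and 1334 probes were called in place of 766. The processed signal scaled to the 75th percentile of non-control spots gave 0.87 for Cnr1, 2857 called probes, 12 called pathway circRNAs in place of 6 and a pathway median of 0.19 in place of 0.15. Scaled to probes detected on all 6 arrays it gave 3181 called probes and a median of 0.11, while the median of all probes shifted to -0.15. With quantile normalization it gave 0.36 for Cacna1c, 2398 called probes, 10 called pathway circRNAs and a median of 0.25. Called probes were higher after surgery in 68.4% as reported and in 38.4%, 23.6% and 55.6% under these 3 settings. Normexp with an offset of 50 left 274 called probes and 3 called pathway circRNAs. Slide row as a block gave 1219 called probes and a pathway median of 0.12, and row 1 alone 1195 and 0.12. Slide column as a covariate gave 0.47 for Cnr1 and 1 called pathway circRNA. Leaving out 1 array gave 657 to 1148 called probes, 4 to 8 called pathway circRNAs, and pathway medians of 0.12 to 0.20. Members then differed by 0.62 to 0.74 (Cnr1), 0.07 to 0.22 (Cacna1c) and -0.92 to -0.58 (Adcy5). Deviations from the group mean correlated at 0.28, 0.25 and -0.02 between surgery and control arrays of the same number. Between arrays of different number the correlations were -0.36 to 0.17. The study speaks of 3 pairs of samples, and these correlations do not settle whether the replicate numbers pair the mice. A replicate block cannot change a difference of means in this balanced layout, and the members stayed at 0.67, 0.17 and -0.77. It gave 199 probes at an adjusted p under 0.05 in place of 6, the highest of 0 to 199 over all alternatives. Unc80 and Grm5 then had an adjusted p of 0.0444 by limma. Slc8a1 also passed 0.05 there, which is no evidence of a difference because of how it met the filter. The cause of these shifts was not tested. Intensity within the range of the named negative spots limits Cacna1c and the called circRNAs of Slc8a1 and Pde7a, on 4 of 6 arrays also Ryr3 and on 1 also Grm5, and 3 arrays per group limit all values.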
